A study of Mus musculus with 17 samples.

Results

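Btg1, Btg2, Ier2, Ier3 and Ier5 are early response genes of the BTG and IER groups, followed here in quiescent NIH 3T3 cells, a fibroblast line from mouse embryos. They were chosen by name, with earlier results of these data known, and their values come from every probe set annotated to exactly 1 of them. The 5 genes, of 12637 genes named in both tables together, have 13 probe sets. The 8-array table holds 9 of these for all 5 genes. The 9-array table holds 4, 1 each for Btg1, Btg2, Ier2 and Ier3, with no probe set annotated to Ier5. All 13 lay above the filter on dim probe sets, 2 of those for Ier5 only through their brighter arrays.

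The study addressed which PDGF-induced genes depend on Src family kinases, MEK or PI3K, and used 17 arrays in 3 experiments, 1 array per condition. The cells were a single established line, without a genetic change named in the labels. In the Src experiment (8 arrays, the 8-array table) cells had vehicle, 2 µM SU6656 (Src family inhibitor), 10 µM UO126 (MEK inhibitor) or 7.5 µM LY294002 (PI3K inhibitor), each without PDGF and with 25 ng/ml PDGF for 1 h. In the MEK experiment (6 arrays) cells were untreated or had 10 µM UO126, 7.5 µM PD98059 (also a MEK inhibitor), PDGF, or PDGF with either inhibitor, at 25 ng/ml PDGF where the sources used here give no time. The Src repeat (3 arrays) had vehicle, PDGF, and PDGF with SU6656, at those doses and 1 h, and shares the 9-array table with the MEK experiment. No source used here says that arrays came from separate cultures, so p-values measure the spread between these arrays, which may be technical. For PDGF effects that spread also holds differences of the PDGF response between inhibitors and experiments. For inhibitor effects in the Src experiment it also holds differences of an inhibitor's effect without and with PDGF. Signals are in the deposited units, scaled alike on every array. A log2 difference was taken on log2 of the quantile normalised signal plus an offset of 36.3 units (8-array table) or 21.2 units (9-array table), which understates changes of dim probe sets.

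BTG1 and BTG2 belong to the antiproliferative BTG and TOB family, which binds the CCR4-NOT complex and promotes removal of poly(A) tails from mRNA. The IER genes are named for rapid induction by growth factors without new protein synthesis: IER2 is a nuclear protein linked to transcription, IER3 (IEX-1) acts in survival and stress signalling and is an ERK substrate, and IER5 binds the phosphatase PP2A and activates the heat shock factor HSF1. In fibroblasts, PDGF signals through receptor tyrosine kinases to Src, the ERK cascade and PI3K, and quiescent cells answer with a brief wave of such transcripts.

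The array probes are not given here, so the sequences shown are the promoters of the genes, as RefSeq gives them for build GRCm38.p6, with 250 bases before the start site and motif letters in capitals. They are shown to set Btg2, which had the largest PDGF effect of the 5 genes in the Src experiment, beside Btg1, which did not pass the test, and beside Ier3 and Ier5. The window of Ier2 is not shown. Btg2 lies at chr1:134079156-134079405 on the minus strand, Btg1 at chr10:96616751-96617000 on the plus strand, Ier3 at chr17:35821463-35821712 on the plus strand and Ier5 at chr1:155099637-155099886 on the minus strand.
Btg2: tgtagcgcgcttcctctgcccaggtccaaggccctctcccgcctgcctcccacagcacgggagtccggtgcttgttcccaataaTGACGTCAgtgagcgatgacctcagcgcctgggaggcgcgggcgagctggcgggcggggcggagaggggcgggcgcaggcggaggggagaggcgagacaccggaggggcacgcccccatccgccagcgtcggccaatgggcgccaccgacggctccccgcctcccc
Btg1: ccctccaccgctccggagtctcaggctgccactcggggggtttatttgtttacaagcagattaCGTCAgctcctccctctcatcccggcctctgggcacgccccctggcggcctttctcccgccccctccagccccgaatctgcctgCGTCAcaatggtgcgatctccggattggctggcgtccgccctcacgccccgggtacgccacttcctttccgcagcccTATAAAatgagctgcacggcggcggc
Ier3: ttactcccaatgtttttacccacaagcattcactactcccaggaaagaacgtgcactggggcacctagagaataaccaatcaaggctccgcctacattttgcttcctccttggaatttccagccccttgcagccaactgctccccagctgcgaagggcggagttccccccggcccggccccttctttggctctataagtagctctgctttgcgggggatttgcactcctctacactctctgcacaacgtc
Ier5: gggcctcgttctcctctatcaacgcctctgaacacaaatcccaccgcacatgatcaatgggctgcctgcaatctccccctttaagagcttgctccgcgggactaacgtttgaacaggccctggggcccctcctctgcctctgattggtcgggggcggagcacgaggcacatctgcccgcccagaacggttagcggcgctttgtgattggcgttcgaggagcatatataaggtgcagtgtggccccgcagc

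Each motif was searched on both strands of windows of 300 bases, 250 before and 50 after the start, in 4 genes and in all 32851 windows of the table. Btg2 holds 1 full cyclic AMP response element, TGACGTCA, at -166 from the start, a motif in 1.79% of all windows. Btg1 holds the core of that element, TGACG, on the minus strand at -187 and -103, and a TATA box, TATAAA, at -26. The core was in 20.8% of windows and the TATA box in 13.6%, and the 2 cores in the Btg2 window overlap its full element. The serum response CArG box (in 1.63% of windows), the AP-1 site TGAGTCA (5.2%), the EGR sites GCGGGGGCG (2.91%) and GCGTGGGCG (0.612%) and the ETS site CCGGAA (14.9%) were not found as these letters in the 4 windows. None of the motifs searched was found as these letters in the Ier3 or Ier5 window. Variants of the TATA box letters were not searched, such as tatataag in the printed Ier5 stretch and tataagta in that of Ier3. GC content of the printed stretch was 73.2% for Btg2, 65.2% for Btg1, 60% for Ier5 and 54.4% for Ier3.

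The cells carried the markers of fibroblasts. The 12 fibroblast markers measured had median percentiles of 99.8 and 98.6 within the arrays of the 8-array and 9-array tables. The lists for leukocytes, epithelium, endothelium, fat and muscle had medians of 21.9 to 38.8, and no marker was at 0 on any array. Single markers of the lists overlapped. The lowest fibroblast markers were Pdgfra (63.9) and Vim (32.8), and the highest of the other lists Csf1r (leukocytes, 65.4) and Eng (endothelium, 74.9), in the same order of tables. The summed signal of 5 endothelial markers was 490.4 to 679 units without PDGF and 370.4 to 424.6 with it on the arrays of the Src experiment, and 721.2 to 893.2 against 416 to 710.8 in the other table. That of 6 leukocyte markers was 991.7 to 1106 without PDGF and 855 to 982.1 with it in the 8-array table, and overlapped in the 9-array table. Of single markers, Cldn3 (epithelium) had a PDGF effect of 1.42 (log2, limma adjusted p = 0.0214) and Eng (endothelium) -1.29 (adjusted p = 0.018) in the 8-array table, and Pdgfra (fibroblast) -0.65 (adjusted p = 0.0187) in the 9-array table. Without 1 array these calls were lost: Pdgfra without any of the 8 arrays (adjusted p = 0.0635 to 0.116), Cldn3 without any but the SU6656 arrays (0.0856 to 0.108) and Eng without any but the LY294002 arrays (0.0689 to 0.114). The part of these signals in the results was not tested. In bulk RNA, more cells with a transcript and more of it per cell cannot be told apart. Array medians were 174.7 to 198.4 and 133.7 to 156.1 units, and arrays of a table correlated at a Spearman's rho of 0.945 to 0.962 and 0.933 to 0.967.

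PDGF raised Btg2, Ier2 and Ier3 in both tables and Ier5 in the table that measures it, while Btg1 did not pass the test in either. The fit compared 4 pairs of arrays without and with PDGF per table, each pair alike in experiment and inhibitor (limma, Benjamini-Hochberg adjusted p under 0.05). At the brightest probe set of each gene, 4 of 5 genes passed in the 8-array table and 3 of 4 in the 9-array table, all upward. Over all probe sets tested, 3.31% and 1.73% passed in either direction. The median effect over the genes was 1.89 and 2.61 on the log2 scale, beside -0.027 and -0.028 over all probe sets. Because the genes were chosen with earlier results of these data known, setting their counts and medians beside all probe sets is descriptive.

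Btg2, the family member known for induction by growth factors and DNA damage, had signals of 315.6 (vehicle), 221.1 (SU6656), 305.1 (UO126) and 395.6 (LY294002) in the Src experiment without PDGF. With PDGF they were 8662.7, 6219.3, 6959.2 and 7489.7 in the same order. The groups did not overlap, and the PDGF array without inhibitor was the highest. Here and for the genes below, the share of all probe sets without such overlap is not given. The fitted effect was 4.45 (log2, SE 0.103, 95% interval 4.22 to 4.68, 21.9-fold, adjusted p = 5.93e-08, higher in 4 of 4 pairs). Only 2 of the 15838 probe sets had a larger absolute effect.

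The other Btg2 probe set of that table went from 190.8, 190.7, 172.2 and 185.6 to 4952.8, 2707.1, 2914.8 and 3763.8 in the same order, an effect of 4.02 (SE 0.131, adjusted p = 2.75e-07). In the MEK experiment the signal of Btg2 was 699.4 untreated, 778.7 with UO126 and 610.5 with PD98059. With PDGF added it was 6723.6, 4304 and 6258.2. PDGF with UO126 was thus the lowest of the stimulated arrays, though well above every unstimulated one. In the Src repeat it was 533.5 with vehicle, 5403.7 with PDGF and 4078.1 with PDGF and SU6656. The 9-array effect was 3.08 (SE 0.158, 95% interval 2.73 to 3.43, 8.44-fold, adjusted p = 2.54e-06, higher in 4 of 4 pairs).

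Ier3, the survival and stress gene, had 311.3, 304.3, 447.9 and 532.9 units without PDGF (vehicle, SU6656, UO126, LY294002) in the Src experiment, and 1442.7, 986.7, 3199.4 and 1274.1 with it. The highest array was PDGF with UO126, not PDGF alone, and the groups did not overlap. The effect was 1.91 (SE 0.201, 95% interval 1.46 to 2.36, adjusted p = 0.000593). In the MEK experiment Ier3 went from 225.9 (untreated), 298.2 (UO126) and 191.1 (PD98059) to 3739.7, 3708.4 and 1599.4. Here PDGF with PD98059 was the lowest stimulated array, and PDGF with UO126 lay beside PDGF alone. The repeat had 363.6 with vehicle, 5098.9 with PDGF and 2604.1 with PDGF and SU6656. In the 9-array table the effect was 3.53 (SE 0.16, 95% interval 3.17 to 3.88, 11.5-fold, adjusted p = 1.02e-06), and Ier3 ranked 8 of 8695 probe sets by absolute effect.

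Ier2, the nuclear immediate early protein, had 794.9, 789.1, 771.4 and 1497 units without PDGF and 2572.8, 2256.4, 3241.1 and 3422.8 with it in the Src experiment, in the order vehicle, SU6656, UO126, LY294002. LY294002 alone was the highest unstimulated array, and no unstimulated array reached a stimulated one. The effect was 1.55 (SE 0.117, 95% interval 1.28 to 1.81, 2.92-fold, adjusted p = 6.86e-05). The MEK experiment had 603.3 (untreated), 469.8 (UO126) and 502.6 (PD98059), then 2900.6, 2759.2 and 2497.7 with PDGF, and the repeat 760.3 with vehicle, 2344.4 with PDGF and 1984.1 with PDGF and SU6656. The 3 stimulated arrays of the MEK experiment lay close together. The effect in the 9-array table was 2.15 (SE 0.136, 95% interval 1.85 to 2.45, 4.43-fold, adjusted p = 9.96e-06).

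Ier5, the HSF1 activator, was measured in the Src experiment alone. Its brightest probe set had 299.2, 288.3, 419.8 and 409.2 units without PDGF and 1670.3, 1143.6, 866.2 and 2166.4 with it, in the order vehicle, SU6656, UO126, LY294002. PDGF with UO126 was the lowest stimulated array and PDGF with LY294002 the highest, without overlap between the groups. The effect was 1.89 (SE 0.199, 95% interval 1.45 to 2.34, adjusted p = 0.000589). At this probe set the pair with UO126 gave the smallest difference, 1, and the pair without inhibitor the largest, 2.37.

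The other Ier5 probe sets are described without a test, since both lay under the 30th percentile of the array on 3 of the 4 arrays without PDGF and passed the filter through brighter arrays. The second by brightness went from 33.1, 34.8, 47.4 and 129.1 units to 667.1, 652.5, 423.7 and 1033.3 in that order, a fitted difference of 3 (log2). The dimmest went from 64.9, 67.1, 64.2 and 104.3 to 109.7, 103.7, 123.7 and 201.7, a fitted difference of 0.7. Its LY294002 array without PDGF (104.3) and its array with PDGF and SU6656 (103.7) lay together, and after normalisation, at 106.1 and 107.4, the groups no longer overlapped. At the second probe set the pair with UO126 again gave the smallest difference, 2.64, and that without inhibitor the largest, 3.34. At the dimmest the pair with UO126 gave the largest, 0.93, and that with SU6656 the smallest, 0.53.

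Btg1, the relative of Btg2 known to be high in quiescent cells, was higher with PDGF in 3 of 4 pairs of the 8-array table and 2 of 4 of the 9-array table. Its brightest probe set in the Src experiment had 3365, 3245.4, 4608.9 and 4066.7 units without PDGF and 3627.1, 4034.9, 3660.6 and 5587 with it, in the order vehicle, SU6656, UO126, LY294002. The groups overlapped, and PDGF with LY294002 was the highest array. The effect of PDGF was 0.09 (SE 0.114, 95% interval -0.16 to 0.35, adjusted p = 0.757), and without either LY294002 array it was -0.02. The other probe set went from 1204.4, 915.2, 1046.4 and 1139.2 to 932.2, 943.3, 1069 and 2024.7 units (effect 0.11, SE 0.157, adjusted p = 0.797).

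In the MEK experiment Btg1 had 1152.9, 1023.1 and 1236.5 units (untreated, UO126, PD98059) and 1139.5, 1200.4 and 1236.6 with PDGF added. The repeat had 1879.6 with vehicle, 1594.5 with PDGF and 1439.7 with PDGF and SU6656. The 9-array effect was 0.01 (SE 0.111, 95% interval -0.24 to 0.26, adjusted p = 0.988), so changes of more than 0.26 upward or 0.24 downward lie outside the interval. This effect was -0.01 on the values as deposited. Btg1b and Btg1c, near copies listed by RefSeq, could share probes with Btg1, which was not tested.

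**Figure D1:**
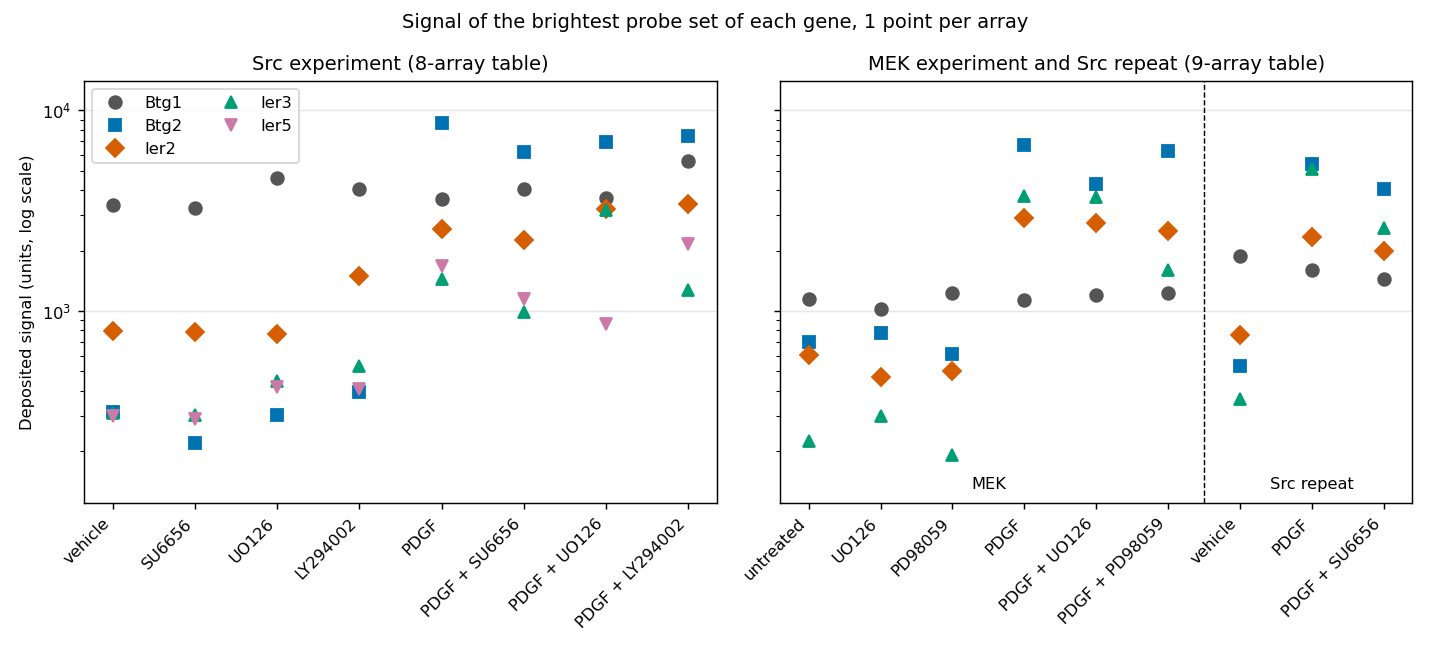
Deposited signal (log axis, signal units) of the brightest probe set of each gene on every array, 1 point per array; the left panel is the Src experiment and the right panel the MEK experiment and the Src repeat, divided by a dashed line. Within each gene except Btg1, every array with PDGF lies above every array of its panel without PDGF; for Btg2 the left panel runs from 221.1 to 395.6 without PDGF and from 6219.3 to 8662.7 with it. The share of all probe sets separated in this way is not given. Heights of different genes are not comparable, since each probe set has its own response.

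Taken without inhibitor, 1 PDGF array against the basal array of its experiment, the mean response over 3 experiments was 3.76 ± 0.82 (log2, SD, n = 3) for Btg2, 3.28 ± 1 for Ier3, 1.84 ± 0.32 for Ier2 and -0.05 ± 0.14 for Btg1. As folds of the mean these are 13.5, 9.74, 3.57 and 0.964. Ier5 had 2.37 in its 1 experiment. The experiments did not agree on which gene responded most. Btg2 had 4.7 in the Src experiment, 3.35 in its repeat and 3.23 in the MEK experiment, and Ier3 had 2.13, 3.84 and 3.88. The array design differs between these tables, so design and experiment cannot be told apart here. At least 1.5-fold higher with PDGF were 4 of 5 genes in the Src experiment, 3 of 4 in its repeat and 3 of 4 in the MEK experiment, where 12.1%, 21.6% and 18.8% of all probe sets moved by that much in either direction.

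**Figure D2:**
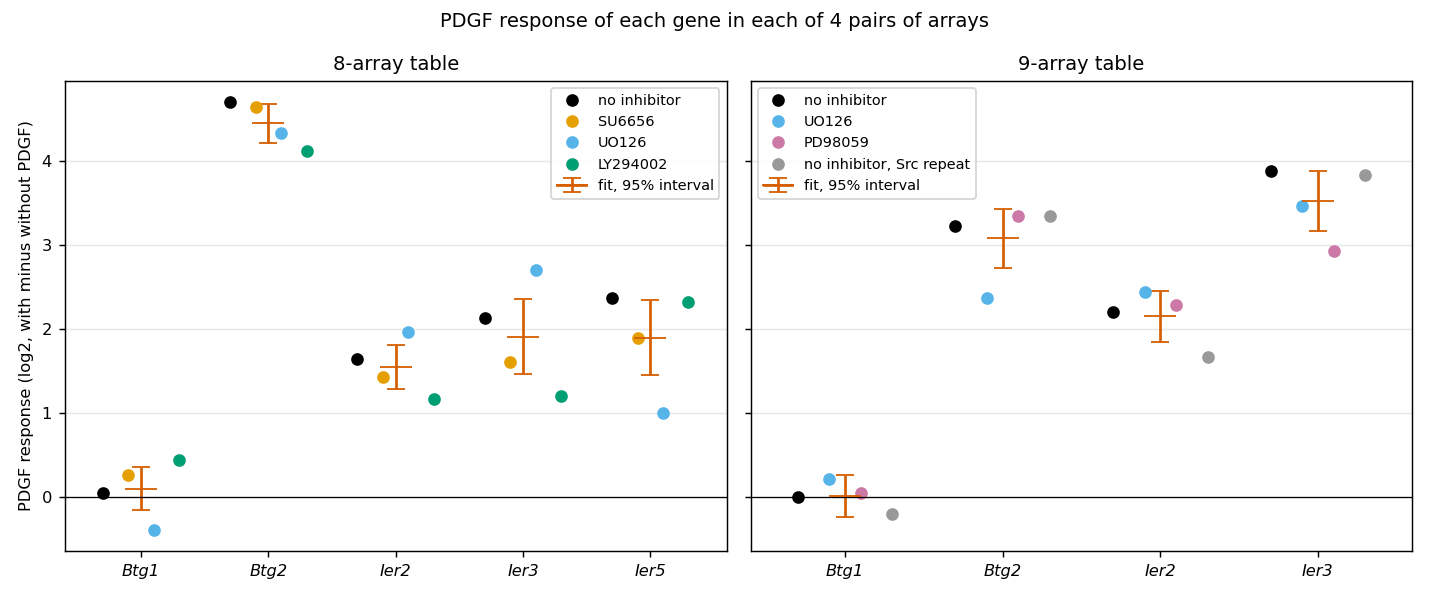
PDGF response (log2 difference, array with PDGF minus array without, same experiment and inhibitor) of the brightest probe set of each gene in each of 4 pairs per table, with the fitted effect and its 95% interval in orange. The Btg2 points span 4.12 to 4.7 on the left and 2.37 to 3.35 on the right, those of Ier5 1 to 2.37, and Btg1 lies on both sides of 0.

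Btg2, Ier2, Ier3 and Ier5 were higher with PDGF under each inhibitor too. At its brightest probe set Btg2 responded by 4.65 with SU6656, 4.34 with UO126 and 4.12 with LY294002 in the Src experiment, against 4.7 without inhibitor. At its other probe set there the values were 3.64, 3.85 and 4.1 against 4.48, so the response with SU6656 differed between the probe sets. In the MEK experiment Btg2 responded by 2.37 with UO126 and 3.35 with PD98059, against 3.23. Ier2 responded by 1.43, 1.96 and 1.16 (SU6656, UO126, LY294002) against 1.64, and by 2.44 and 2.28 against 2.2. For Ier3 the values were 1.61, 2.7 and 1.2 against 2.13, and 3.47 and 2.93 against 3.88. Of the 3 induced genes Ier2 had the narrowest range in the MEK experiment, and Ier3 had the widest range of all 5 genes in the Src experiment. Ier5 responded by 1.89, 1 and 2.32 against 2.37 at its brightest probe set. Its second probe set had 3.33, 2.64 and 2.69 against 3.34, and the dimmest 0.53, 0.93 and 0.77 against 0.58. Each is 1 difference of 2 arrays, and in the Src experiment an interaction of PDGF with an inhibitor has no replicate to test it.

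No inhibitor effect on these genes passed the test. In the Src experiment each inhibitor was fitted over 2 arrays against 2 vehicle arrays, with PDGF in the fit, and 0 of 5 genes passed for SU6656, UO126 or LY294002, where 0.107%, 0.0442% and 0.511% of all probe sets did. At an unadjusted p under 0.05 (limma) were 1 gene for SU6656, 1 for UO126 and 2 for LY294002, and of all probe sets 8.01%, 9.09% and 13.3%. In the MEK experiment, with UO126 and PD98059 as 2 replicates of MEK inhibition, 0 of 4 genes passed under PDGF, without PDGF or for the interaction, beside 0%, 0.0115% and 0% of all probe sets. There, 0, 1 and 0 genes had an unadjusted p under 0.05, and of all probe sets 7.23%, 7.25% and 4.86% did.

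With SU6656, Btg2 had an effect of -0.49 (SE 0.146, 95% interval -0.82 to -0.16, unadjusted p = 0.00786 in limma, adjusted p = 0.452). Its other probe set had -0.43 (SE 0.185, adjusted p = 0.604). Under PDGF, the SU6656 array of the Src experiment differed from the PDGF array by -0.52 for Btg2, -0.55 for Ier3, -0.53 for Ier5, -0.2 for Ier2 and 0.15 for Btg1 (log2). In the repeat the SU6656 array gave -0.34 for Btg2, -0.95 for Ier3, -0.27 for Ier2 and -0.17 for Btg1. Btg2, Ier2 and Ier3 were therefore lower on both SU6656 arrays, while Btg1 differed in sign. The other Ier5 probe sets had -0.02 and -0.07, and that of Btg2 had -0.86. By brightest probe set, past 1.5-fold were 0 of 5 genes in the Src experiment and 1 of 4, Ier3, in the repeat. Of all probe sets 9.97% and 17.5% were. Without PDGF, 0 of 5 genes were past 1.5-fold with SU6656 (11.5% of all probe sets), and Btg2 had the largest difference, -0.46, with -0.01 at its other probe set.

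MEK inhibition gave values that differed between inhibitors and experiments for Ier3, itself a substrate of ERK. Under PDGF, Ier3 differed by 1.07 with UO126 in the Src experiment, by -0.03 with UO126 in the MEK experiment and by -1.2 with PD98059 (log2). The fit over both MEK inhibitors gave -0.6 under PDGF (SE 0.368, 95% interval -1.42 to 0.21, adjusted p = 0.79), and that of UO126 in the Src experiment 0.78 (SE 0.284, 95% interval 0.15 to 1.42, unadjusted p = 0.0213 in limma, adjusted p = 0.444). The 2 intervals come from different tables, and their difference was not tested. A share of 2.74% of all probe sets had a difference as large as that of Ier3 with UO126 in the Src experiment, and 3.21% as large as with PD98059.

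Btg2 was lower on each array with a MEK inhibitor and PDGF, with differences of -0.4 (UO126, Src experiment), -0.71 (UO126, MEK experiment) and -0.1 (PD98059). Its other probe set in the Src experiment had -0.78 with UO126, past 1.5-fold. The additive effect of UO126 there was -0.22 at the brightest probe set (limma adjusted p = 0.706). It was -0.47 at the other (95% interval -0.88 to -0.05, unadjusted p = 0.0312 in limma, adjusted p = 0.483). The fit under PDGF gave -0.43 (SE 0.234, 95% interval -0.95 to 0.09, adjusted p = 0.755). Ier5 differed by -0.91 with UO126 at its brightest probe set, by -0.58 at the second and by 0.2 at the dimmest. Its additive effect of UO126, over arrays without and with PDGF, was -0.22 (SE 0.281, adjusted p = 0.869), and 0.37 when the array of PDGF with UO126 was left out. The difference without PDGF was 0.46 at the brightest probe set, 0.13 at the second and -0.15 at the dimmest. Ier2 had 0.3, -0.11 and -0.21, with a fitted effect of -0.03 (SE 0.192, 95% interval -0.45 to 0.4, adjusted p = 0.988) that was 0.1 when arrays were scaled to a common median. By brightest probe set, Ier3 up and Ier5 down of 5 genes were past 1.5-fold under PDGF for UO126 in the Src experiment (11.3% of all probe sets). Btg2 of 4 was for UO126 in the MEK experiment (14.6%), and Ier3 of 4 for PD98059 (16.4%).

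Without PDGF, MEK inhibition left 0 of 4 genes past 1.5-fold with UO126 or PD98059 in the MEK experiment, beside 15.9% and 15% of all probe sets, and 0 of 5 with UO126 in the Src experiment, beside 11.4%. Ier2 had -0.35 and -0.3 in the MEK experiment. The 9-array fit, which shares its PDGF term with the Src repeat, gave a value outside both. It was -0.45 (SE 0.192, 95% interval -0.88 to -0.03, unadjusted p = 0.0391 in limma, adjusted p = 0.649). With 1 array left out this effect was -0.85 to -0.32. In the Src experiment Ier2 had -0.03 with UO126. Ier3 had 0.38 with UO126 and -0.24 with PD98059 in the MEK experiment, and 0.5 with UO126 in the Src experiment, so its sign differed between the MEK inhibitors. For the interaction of PDGF with MEK inhibition the values were -0.66 for Ier3 (95% interval -1.69 to 0.37), -0.43 for Btg2, 0.43 for Ier2 and 0.23 for Btg1, each with an adjusted p of 0.999.

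With LY294002, none of the genes passed. The fitted effect was 0.65 for Ier2 (SE 0.165, 95% interval 0.28 to 1.03, unadjusted p = 0.00299 in limma, adjusted p = 0.125) and 0.45 for Btg1 (SE 0.161, 95% interval 0.08 to 0.81, adjusted p = 0.27). Ier5 had 0.39, with 0.92 and 0.6 at its other probe sets, Ier3 0.27 and Btg2 0.02, and the sign of the last 2 turned without the LY294002 array (-0.2 each). Without PDGF, Ier2 was 0.89 higher and Ier3 0.74 higher, so by brightest probe set 2 of 5 genes were past 1.5-fold, beside 11.9% of all probe sets. Ier5 had 0.42 there, with 1.25 and 0.5 at its other, dim probe sets. Under PDGF only Btg1 was past 1.5-fold by brightest probe set, at 0.64 (1.07 at its other probe set), 1 of 5 beside 12.5%. Ier2 under PDGF was 0.42 higher, Ier3 had -0.19 and Btg2 -0.28. Ier5 was 0.37 higher, with 0.59 and 0.69, both past 1.5-fold, at its other probe sets. Ier2 and Ier5 were thus higher on both LY294002 arrays, and Ier3 on the unstimulated one alone. Btg1 had 0.26 without PDGF, and -0.09 at its other probe set.

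**Figure D3:**
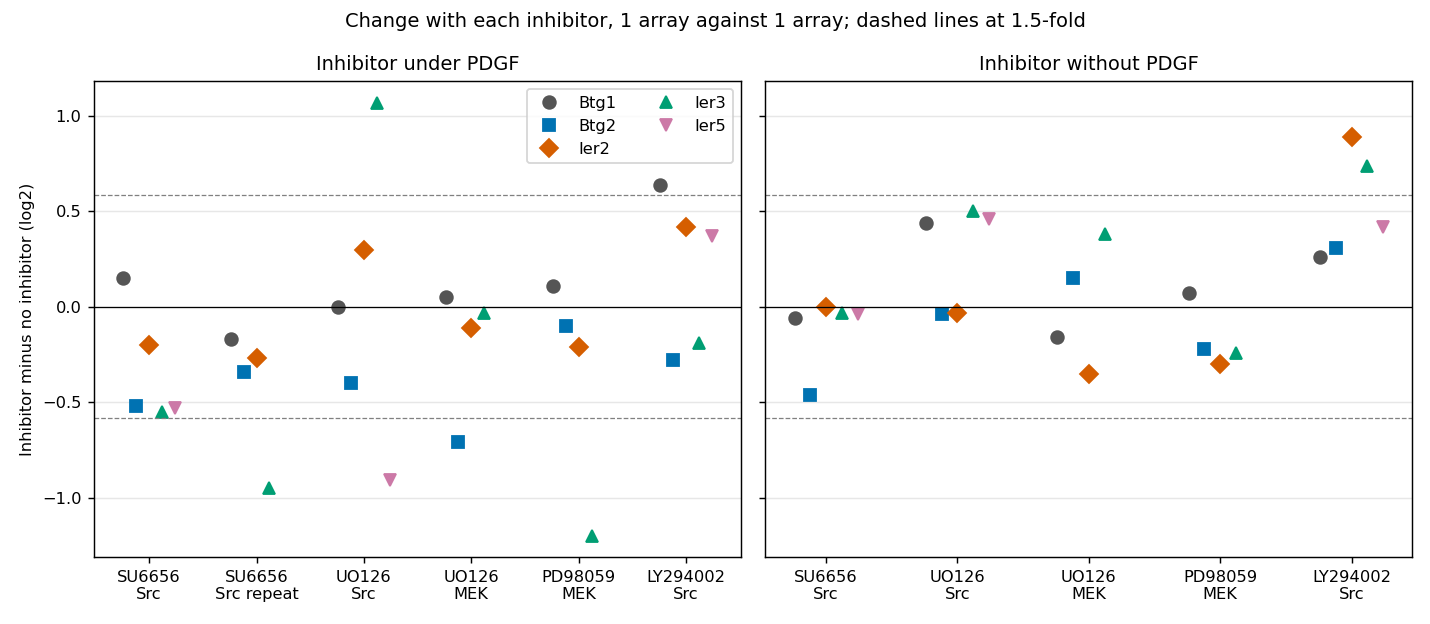
Difference with each inhibitor (log2, inhibitor array minus the array of the same experiment without inhibitor), under PDGF on the left and without it on the right, 1 point per gene and array pair, with dashed lines at 1.5-fold. Ier3 runs from -1.2 with PD98059 to 1.07 with UO126 in the Src experiment under PDGF, and Ier2 is highest with LY294002 without PDGF, at 0.89.

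**Figure D4:**
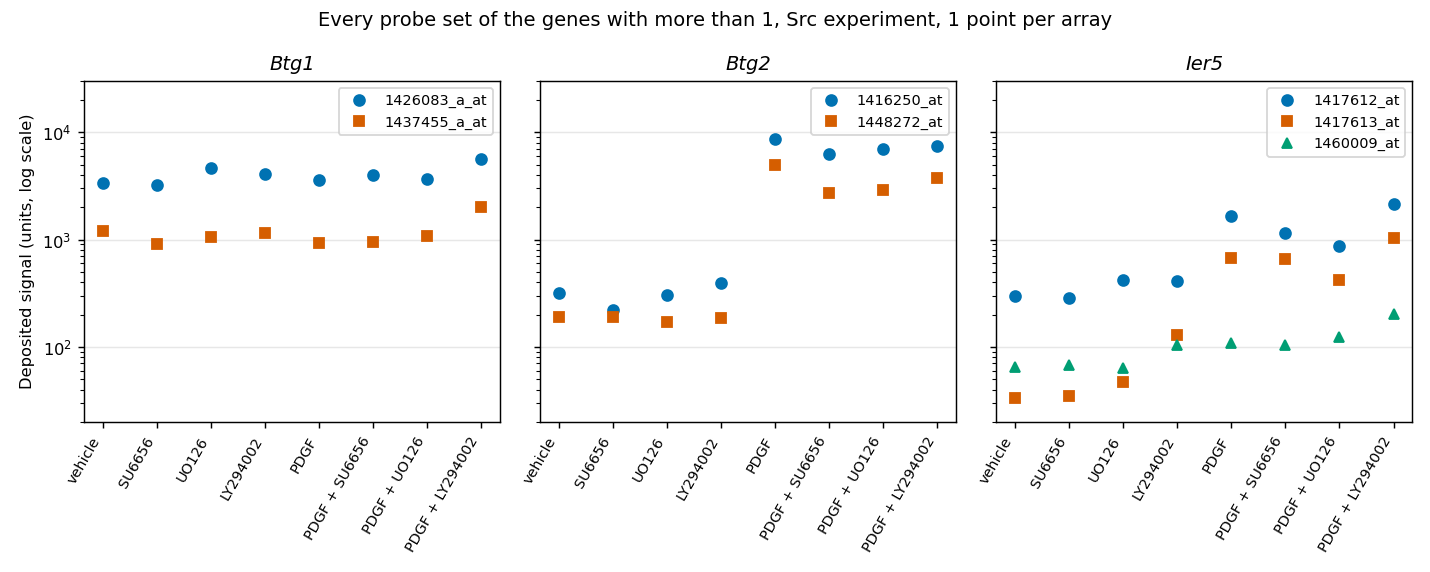
Deposited signal (log axis, signal units) of every probe set of Btg1, Btg2 and Ier5 on the 8 arrays of the Src experiment, 1 point per array. Both Btg2 probe sets are separated by PDGF, the Ier5 probe sets have fitted PDGF differences of 1.89, 3 and 0.7, and both Btg1 probe sets are highest with PDGF and LY294002.

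The profiles of Btg2, Ier2, Ier3 and Ier5 over the 8 arrays of the Src experiment had Pearson's r of 0.784 to 0.943 with each other, and those of Btg2, Ier2 and Ier3 had r of 0.963 to 0.967 over the other 9 arrays after each experiment's mean was removed. Btg1 had 0.147 to 0.461 and -0.18 to 0.0066 with them. These describe arrays that share the step from unstimulated to stimulated cells. Of 9217 other genes in the 8-array table, those most like Btg2 were Nr4a1 (r = 0.995), Plk3 and Phlda1, those most like Ier2 were Egr1 (0.989), Gadd45b and Cyth2, those most like Ier3 were Zfp36l1 (0.977), E2f5 and Akirin1, and those most like Ier5 were Klf9 (0.99), Hbegf and Myc. Of 6365 in the 9-array table they were Egr2 (0.996), Zfp36l2 and Epha2 for Btg2, Egr1 (0.988), Socs1 and Egr2 for Ier2, and Ptgs2 (0.994), Bdnf and Phlda1 for Ier3. Egr1, the growth factor induced zinc finger factor, was the closest to Ier2 in both tables. Btg1 was closest to Cox16 (0.957) and Mrm3 (0.936).

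Of the BTG and TOB family, Tob1 and Tob2, antiproliferative relatives that also bind the deadenylase, did not pass with PDGF. Tob1 had 0.68 (SE 0.161, adjusted p = 0.0574) in the 8-array table and 0.47 (SE 0.104, adjusted p = 0.0561) in the 9-array table, and Tob2 had 0.37 (adjusted p = 0.164). Btg3 shares its probe sets with another gene and is not given. Ier5l, a relative of Ier5, had 0.44 (adjusted p = 0.255). Of the CCR4-NOT subunits, which carry out the deadenylation that BTG proteins promote, 0 of 8 and 0 of 6 passed (2 and 1 at an unadjusted p under 0.05 in limma, where 16.3% and 13.3% of all probe sets lay), with median effects of -0.03 and -0.06. Among them the BTG-binding deadenylases Cnot7 and Cnot8 had 0.19 and -0.49 in the 8-array table (adjusted p = 0.335 and 0.051) and -0.01 and -0.44 in the 9-array table (adjusted p = 0.99 and 0.358). Of Prmt1, Pabpc1 and Hoxb9, other BTG partners, 0 of 3 passed in either table, with 0 at an unadjusted p under 0.05 in limma.

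Of the partners of IER3, 1 of 5 rose in the 8-array table and 0 of 4 in the 9-array table. The one that rose was Mcl1, an antiapoptotic BCL2 relative, by 0.87 (SE 0.0728, adjusted p = 0.000132), and it had 0.35 (adjusted p = 0.224) in the 9-array table. Of the genes around IER5 and HSF1, 2 of 7 rose in each table. Over all probe sets, 3.31% and 1.73% passed in either direction. At an unadjusted p under 0.05 in limma were 1 and 1 of the IER3 partners and 5 and 3 of the genes around IER5 and HSF1. Of all probe sets, 16.3% and 13.3% lay there. Dnajb1, a co-chaperone that HSF1 induces, had 1.89 (SE 0.229, adjusted p = 0.00144) and 1.19 (SE 0.228, adjusted p = 0.0269), and the latter did not pass without the MEK experiment's untreated array (adjusted p = 0.0935) or its PDGF array (adjusted p = 0.087). Hspa1b, an inducible heat shock protein, had 0.86 (adjusted p = 0.00267) and 0.72 (adjusted p = 0.0357). The latter did not pass when any 1 array but UO126 or PDGF with UO126 was left out (adjusted p = 0.11 to 0.148). The probes of Hspa1b may also match the near copy Hspa1a. At its own probe set in the 9-array table Hspa1a had -0.41 (adjusted p = 0.616).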

How the data were processed

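The authors deposited intensity on a linear scale, 1 value per probe set and array, in tables of 8 and 9 arrays. Trimmed means (2% at each end) of 500.2 to 500.4 show that arrays had been scaled alike. Their software and build are not named by the sources used here. Probe sets took gene names from the platform annotation, with symbols updated through RefSeq (GRCm38.p6). Control probe sets were left out, values were quantile normalised within each table, the table's 20th percentile was added before log2, and the lowest 30% by mean were dropped, leaving 15838 and 8695 probe sets. The limma package 3.58.1 (R 4.3.3; lmFit, then eBayes with trend) gave each fit 3 residual degrees of freedom; p-values were adjusted by Benjamini-Hochberg across every probe set that passed the filter, at a threshold of 0.05. That residual also holds treatment differences without a term. The repeat's PDGF with SU6656 array had no partner and stayed out of the PDGF fit. The 9-array inhibitor fit had terms for experiment, PDGF, MEK inhibition, their interaction and SU6656. Tables were never fitted together. A gene was represented by its brightest probe set. All 5 genes were named at every probe set, relatives where they passed or were closest family, and for likeness the 3 genes with the highest Pearson's r. Fits were tested on simulated data. Members, lists and tests were chosen with earlier results of these data known. Alternatives were the normalisation, offset, filter, variance trend, pair block, choice of probe set and leaving out each array. The number of arrays limits the precision.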

Additional observations from a re-analysis of the deposited data

Results flagged for a closer look

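Single arrays of the same treatment differed by at least 0.1 (log2) in opposite directions between experiments in 3 cases, and none of these differences was tested. With SU6656 under PDGF, Btg1 differed by 0.15 in the Src experiment and by -0.17 in its repeat (log2). With UO126 without PDGF, Btg1 differed by 0.44 in the Src experiment and by -0.16 in the MEK experiment. With UO126 under PDGF, Ier2 differed by 0.3 in the Src experiment and by -0.11 in the MEK experiment, and the latter ranged from -0.11 to 0.08 over the alternatives. All 6 values are below 1.5-fold. Where 1 of the values lay within 0.1 of 0, signs also differed with UO126 for Ier3 under PDGF (1.07 in the Src experiment and -0.03 in the MEK experiment) and for Btg2 without PDGF (-0.04 and 0.15).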

How the results depend on the processing

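The number of genes past the threshold was the same under every alternative run, for PDGF (4 of 5 and 3 of 4) and for every inhibitor fit (0). The highest adjusted p of a called gene was 0.0402 for Ier3, 0.0392 for Ier5 and 0.0194 for Ier2 in the 8-array table. Mean PDGF responses of the 4 genes with 3 experiments moved by less than their SD, and that of Ier5, with 1 experiment and no SD, ranged from 2.1 to 2.46. Signs turned in 27 values, all of effects that did not pass. On values as deposited Btg1 had -0.01 with PDGF in the 9-array table, and Ier2 0.01 with MEK inhibition under PDGF (0.1 with a common median). Btg2 with MEK inhibition without PDGF, reported as 0 after rounding, was 0 with a common median. With the mean over probe sets, Btg1 had -0.07 with SU6656 and Btg2 -0.08 with LY294002. Leaving out each array in turn gave Btg1 -0.02 to 0.25 and -0.06 to 0.08 with PDGF in the 8-array and 9-array tables, -0.07 to 0.16 with SU6656 and -0.1 to 0.54 with UO126. In the 8-array table Ier5 had -0.61 to 0.04 with SU6656 and -0.82 to 0.37 with UO126, Ier2 -0.14 to 0.41 with UO126, and Btg2 -0.2 to 0.24 and Ier3 -0.2 to 0.74 with LY294002. With MEK inhibition Ier2 had -0.16 to 0.37 under PDGF, and without PDGF Btg1 had -0.26 to 0.01, Btg2 -0.19 to 0.18 and Ier3 -0.26 to 0.37.

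The count over all probe sets depended more on the setting. With PDGF, 525 and 150 passed in the 8-array and 9-array tables, 175 and 63 without the variance trend and 241 and 60 without the pair block. For SU6656, UO126 and LY294002, 17, 7 and 81 passed, 11, 0 and 45 without a filter and 0, 0 and 0 without the trend. For MEK inhibition under PDGF 0 passed, 3 with a common median, 1 as deposited and 1 with the 30th percentile as offset. Without PDGF 1 passed, and 0 with that offset, without a filter or without the trend. With 1 array left out the counts were 264 to 386 and 101 to 116 for PDGF, where the 8-array count was 266 without vehicle, 264 without PDGF, 332 and 344 without SU6656 or PDGF with SU6656, and 336 and 341 without LY294002 or PDGF with LY294002. They were 0 to 19 for SU6656, 0 to 8 for UO126, 4 to 106 for LY294002, 0 to 3 and 0 to 2 for MEK inhibition under and without PDGF, and 0 to 1 for the interaction. The cause was not tested. In 4 further cases 1 single-array difference moved by more than the residual spread, without a test.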
